A study of Saccharomyces cerevisiae with 24 samples.

Results

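A pair of Saccharomyces cerevisiae strains was compared. In one, the alanine substitution rtf1-108-110AAA (rtf1-AAA below) alters the Paf1 complex subunit Rtf1 while the RAD6 gene is kept. In the other, RAD6 is deleted and Rtf1 is intact (rad6Δ tagged below). The comparison asks which effects of losing Rad6 the Rtf1 substitution did not share. Members were the 6 libraries, of 24 in the series, whose column headers named these strains: 3 for rtf1-AAA and 3 for rad6Δ tagged.

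Rad6 is a ubiquitin-conjugating enzyme with several partners. With the ligase Bre1 it attaches ubiquitin to a lysine of histone H2B on transcribed genes, and Rtf1, through its histone modification domain, stimulates that step. With the ligase Rad18 it modifies the replication clamp at stalled forks, and with the ligase Ubr1 it marks proteins of the N-degron pathway, among them Cup9, the repressor of the peptide transporter gene PTR2. Deletion of RAD6 removes all of these branches.

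Every strain was a MATa haploid with the alleles his3Δ200, lys2-128Δ, ura3-52 and trp1Δ63, grown in the rich medium YPD to log phase, mixed 9:1 with Kluyveromyces lactis cells and profiled as ribosome-depleted, strand-specific RNA. The rtf1-AAA strain (KY3748) carried 3HA-rtf1-108-110AAA and Rad6 fused to 13 copies of Myc with the KanMX marker. The rad6Δ tagged strain (KY3737) carried 3xHA-RTF1 and rad6Δ::KanMX, so that it lacks the Myc fusion as well as Rad6. These cannot be told apart here. The wild type with both tags (WT tagged, KY3751) gives the level that both strains are read against, and 3 strains without tags served as libraries of their own: WT untagged (KY669), rad6Δ untagged (KY4019) and H2B-K123R (KY3781), in which both H2B genes encode arginine in place of the ubiquitylated lysine. Each genotype was 1 strain with 3 biological replicates, so that p-values measure the spread between cultures of one strain.

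The substituted stretch of RTF1 (YGL244W) lies in the coding sequence, on the plus strand of chromosome VII. The R64 reference sequence of codons 98 to 120 of its 558 codons is shown because the substitution falls there, with codons 108 to 110 (TTT, GAA and AGA) in capitals:
RTF1 codons, chrVII:41789-41857, plus strand: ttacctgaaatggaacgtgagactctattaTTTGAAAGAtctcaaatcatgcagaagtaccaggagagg

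Sense counts per library ran from 7227245 to 9798353, antisense counts from 411344 to 602842, and K. lactis counts from 1051104 to 1395338 in the 6 libraries. Levels below are CPM, counts scaled to a common TMM-adjusted sense total per library, and do not compare one gene with another. A log2 difference is rtf1-AAA minus rad6Δ tagged unless another pair is named, with its standard error. A gene was called when edgeR's quasi-likelihood test gave a Benjamini-Hochberg adjusted p under 0.05 over all genes tested. All 7 a-specific genes were present in every library. Of the genes of the opposite mating type, MF(ALPHA)1 had at most 4 counts, HMLALPHA1 and HMLALPHA2 (which have near-identical copies) were listed at 0, and STE3 had 20 to 57. Summed, the 8 alpha-specific and silent cassette genes had 25.62 to 31.2 CPM in rad6Δ tagged, 30.08 to 35.13 in rtf1-AAA and 31.85 to 33.3 in WT tagged. HMRA1, at 165 to 229 counts in the 6 libraries and 196 to 216 in WT tagged, made up most of that sum, so that the sum says little about the alpha-specific genes. HMRA1 is a gene of the a type and no marker of the opposite mating type. Whether its reads came from the silent cassette or from the mating-type locus of these MATa strains was not tested. Of the 4 genes of this list that were tested, 1 was higher and 1 lower in rtf1-AAA. In RNA of whole cultures, fewer cells of a type and less RNA per cell cannot be told apart.

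RAD6 (YGL058W, VII 393986 to 394504) checked the labels. It had 0, 1 and 1 counts in rad6Δ tagged and 476, 748 and 1320 in rtf1-AAA, a ratio of 1250 with an exact 95% counting interval of 344 to 10300. In rtf1-AAA the level was 68.8, 95.1 and 132 CPM, against 46.8, 56.8 and 45.7 CPM in WT tagged, so that each rtf1-AAA library lay above each WT tagged library (log2 0.99 ± 0.17, adjusted p = 0.000335). RTF1 itself stood at 171, 182 and 146 CPM in rad6Δ tagged and 135, 176 and 157 CPM in rtf1-AAA, and was not called (log2 −0.09 ± 0.16, adjusted p = 0.763). The neighbours PKP2, GEP7, GUS1 and TAD1 were not called either, and HIS3 had 0 counts in all 6 libraries. Of the 3 marker genes tested, LYS2 and URA3 were not called and TRP1 was lower in rtf1-AAA (log2 −0.74). TRP1 exceeded WT tagged by 1.14 in rad6Δ tagged, although every strain carried trp1Δ63. Its call did not hold in all 6 fits without 1 library, and its cause was not tested.

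Of 5790 genes tested on the sense strand, 830 (14.3%) were called. In rtf1-AAA, 373 (6.44%) were higher and 457 (7.89%) were lower than in rad6Δ tagged. Counts of genes higher or lower in the lists below are to be read against these shares. Differences of 2-fold or more were more often lower, with 125 genes against 50 higher. Libraries of the 2 strains did not overlap at 811 of the called genes, and at 30.19% of all genes tested. The median log2 difference was −0.01 over all genes. With only the compared libraries in the model 466 genes were called, and without rad6Δ tagged replicate 1 there were 532. A core of 389 genes (185 higher, 204 lower) was called in each of the 6 fits without 1 library.

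The 830 genes were sorted by how each strain differed from WT tagged, a description by thresholds in which the comparisons share libraries. At 440 genes the deletion differed from WT tagged, rtf1-AAA differed from the deletion in the opposite sense, and rtf1-AAA was not called against WT tagged. These 440 genes, 192 low in the deletion and 248 high in it, are called unshared below. A missing call does not show wild-type levels: at 299 of them rtf1-AAA lay on the deletion's side of WT tagged, at 5 by 2-fold or more. Their median absolute log2 difference from WT tagged was 0.74 in rad6Δ tagged and 0.16 in rtf1-AAA. Another 202 genes were changed the same way in both strains and by less in rtf1-AAA (median 1.13 against 0.54). At 12 genes both strains were called against WT tagged, in opposite directions. At 83 rtf1-AAA was called against WT tagged and lay farther from it than the deletion did. The remaining 93 met none of these conditions.

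PTR2 (YKR093W, XI 615730 to 617535), which encodes the membrane transporter of di- and tripeptides, was the largest difference after RAD6. It had 5.61, 5.43 and 7.31 CPM in rad6Δ tagged, 144, 161 and 149 CPM in rtf1-AAA and 158, 173 and 154 CPM in WT tagged. The rtf1-AAA libraries overlapped the wild type and stood far above the deletion (log2 4.63 ± 0.17, adjusted p = 1.02e-14), and against WT tagged rtf1-AAA was not called (log2 −0.10, adjusted p = 0.66). The strains without tags gave the same contrast in other libraries, at 5.64 ± 1.31 CPM in rad6Δ untagged, 142 ± 10.6 in H2B-K123R and 156 ± 17.2 in WT untagged (SD, n = 3).

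CUP9, which encodes the repressor of PTR2 that Ubr1 and Rad6 destabilise, moved with PTR2 rather than against it at the RNA level. It had 5.12, 6.29 and 6.05 CPM in rad6Δ tagged and 11, 13.9 and 15.6 in rtf1-AAA, without overlap (log2 1.22 ± 0.21, adjusted p = 0.00042). H2B-K123R likewise exceeded rad6Δ untagged, by 1.46 (adjusted p = 9.3e-05). Of the 16 genes of the N-degron pathway and peptide transport, 4 were higher and 3 lower in rtf1-AAA, with a median of −0.05. The ligase genes UBR1 (log2 −0.39 ± 0.09, adjusted p = 0.00565) and UBR2 (−0.62 ± 0.10, adjusted p = 0.000221) were lower in rtf1-AAA, and the oligopeptide transporter gene OPT2 was higher (1.09 ± 0.16, adjusted p = 4.57e-05). OPT2 did not follow PTR2: its 87.5, 74.4 and 66.6 CPM in rtf1-AAA and 36.6, 30.6 and 39.8 in rad6Δ tagged both exceeded the 19.8, 13.9 and 16.8 of WT tagged.

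**Figure D1:**
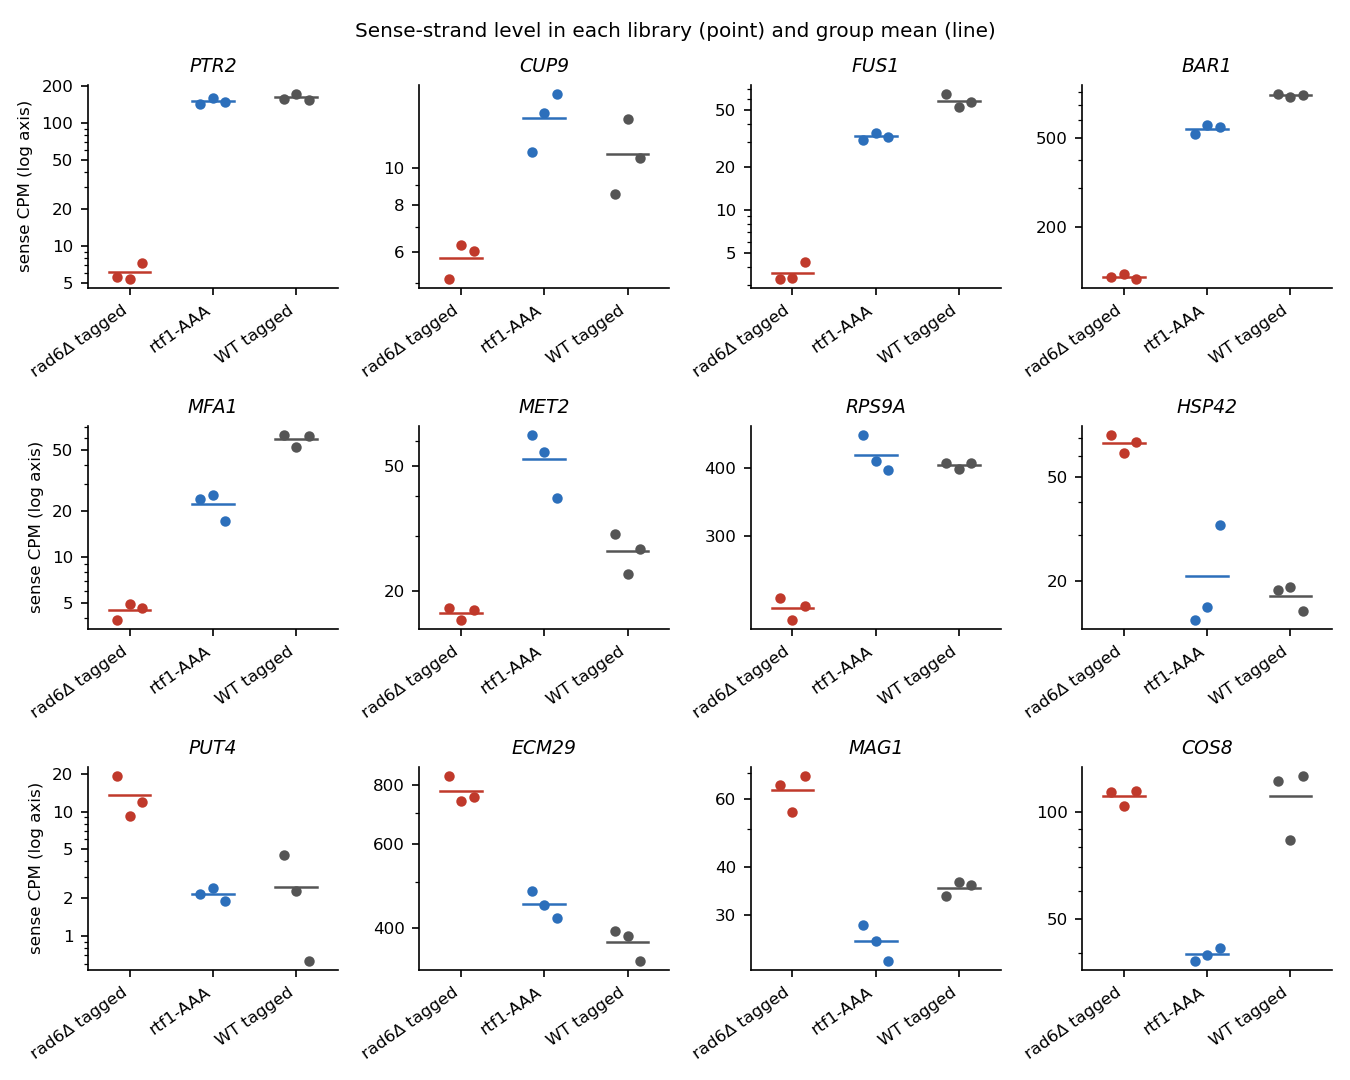
Sense-strand CPM on a log axis for 12 genes, with 1 point per library and a line at the mean of 3 libraries for rad6Δ tagged, rtf1-AAA and WT tagged. PTR2 in rtf1-AAA (144 to 161 CPM) sits at the wild-type level, FUS1, BAR1 and MFA1 lie between the deletion and the wild type, and COS8 is low in rtf1-AAA alone of the 3 strains.

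Pheromone and mating genes were mostly higher in rtf1-AAA than in the deletion. In MATa cells the receptor Ste2 acts through a G protein and a kinase cascade on the factor Ste12, which binds pheromone response elements upstream of mating genes. Upstream sequences of 3 genes are shown because their levels carry this result. Each runs from 300 to 101 bases before the start codon in R64, read towards the gene, and capitals mark TGAAACA or its reverse complement:
FUS1, chrIII:71503-71702, plus strand: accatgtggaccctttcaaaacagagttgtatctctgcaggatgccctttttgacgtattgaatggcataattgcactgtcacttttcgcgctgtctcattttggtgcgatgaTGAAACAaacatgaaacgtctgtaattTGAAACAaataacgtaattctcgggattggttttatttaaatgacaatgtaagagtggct
PRM1, chrXIV:110617-110816, plus strand: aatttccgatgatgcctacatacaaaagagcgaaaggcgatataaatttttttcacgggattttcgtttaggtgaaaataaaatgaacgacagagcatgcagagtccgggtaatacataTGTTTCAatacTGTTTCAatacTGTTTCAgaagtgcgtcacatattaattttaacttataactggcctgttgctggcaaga
BAR1, chrIX:322042-322241, plus strand: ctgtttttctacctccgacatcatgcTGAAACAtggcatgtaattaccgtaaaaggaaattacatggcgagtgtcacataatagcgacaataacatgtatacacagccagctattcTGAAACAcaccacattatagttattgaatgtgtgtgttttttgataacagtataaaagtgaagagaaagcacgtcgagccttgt

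On either strand of the 300 bases before the start codon, TGAAACA occurred at 12 of 22 pheromone-induced genes (54.5%) and 5 of 7 a-specific genes (71.4%), against 6.99% of the 5569 tested genes with such a window. None of the other motifs searched is contained in these letters. TGAAACA stood before 9 of the 14 called pheromone-induced genes and 5 of the 7 called a-specific genes. The lists here and below gather genes of known pathways. Shares over a whole list therefore describe the list and not the difference between strains. Of the 22 pheromone-induced genes, 14 were higher in rtf1-AAA, 0 were lower, and the median log2 difference was 1.03. All 7 a-specific genes were higher, with a median of 1.62 and a range of 0.90 to 2.29, and each stayed called in all 6 fits without 1 library. Summed over the list, the a-specific genes had 773.2 to 883.7 CPM in rad6Δ tagged, 2083 to 2230 in rtf1-AAA and 3280 to 3420 in WT tagged.

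FUS1, which encodes a membrane protein of cell fusion, had 3.29, 3.33 and 4.29 CPM in rad6Δ tagged, 30.9, 34.7 and 32.5 in rtf1-AAA and 65, 52.5 and 56.6 in WT tagged. The 3 strains did not overlap, and rtf1-AAA lay above the deletion (log2 3.17 ± 0.17, adjusted p = 6.08e-12) and below the wild type (−0.83, adjusted p = 0.000163). PRM1, another fusion gene, overlapped the wild type in rtf1-AAA and was not called against it (adjusted p = 0.4). It had 3.66, 3.82 and 4.92 CPM in rad6Δ tagged, 66.5, 67.1 and 42.4 in rtf1-AAA and 71, 55.2 and 74.4 in WT tagged (log2 3.82 ± 0.19, adjusted p = 1.8e-12). FIG1, PRM2 and PRM6, genes induced during mating, were also higher in rtf1-AAA, by 3.25, 2.14 and 3.88, and were not called against WT tagged. PRM6 rests on 0 to 0.63 CPM in rad6Δ tagged.

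Other mating genes lay between the deletion and the wild type. SST2, whose product turns off the G protein, had 86.8, 80.2 and 78.3 CPM in rad6Δ tagged, 285, 269 and 246 in rtf1-AAA and 661, 621 and 735 in WT tagged. It fell by 3.04 in the deletion and by 1.33 in rtf1-AAA relative to WT tagged (adjusted p = 2.79e-15 and 1.08e-08). The a-factor gene MFA1 had 3.9, 4.93 and 4.66 CPM in rad6Δ tagged, 23.9, 25.2 and 17.3 in rtf1-AAA and 62.7, 52.2 and 61.7 in WT tagged. BAR1, whose product is the protease that degrades alpha-factor, stood at 120, 124 and 118 CPM, then 521, 569 and 557, then 786, 759 and 779 in the same order of strains. In each of these genes no library of one strain overlapped another strain. The receptor gene STE2 (1.62 ± 0.20) and the a-agglutinin genes AGA1 (1.96 ± 0.44) and AGA2 (2.23 ± 0.40) were higher in rtf1-AAA too, although AGA1 was not called when reads were counted without strand (0.76, adjusted p = 0.0856).

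The signalling genes that act after the receptor moved less. Of 13 genes for the G protein, the kinase cascade and factors around them, 4 were higher and 1 was lower. The receptor gene STE2 is not among them. These counts were 2 and 0 without rtf1-AAA replicate 2 and 3 and 0 without replicate 3. The G protein genes GPA1 (log2 1.05 ± 0.10, adjusted p = 1.13e-07) and STE4 (0.81 ± 0.08, adjusted p = 3.04e-07) held in all 6 fits without 1 library. STE12 had 34.9, 37.6 and 21 CPM in rad6Δ tagged and 41.3, 67.5 and 70.1 in rtf1-AAA (0.94 ± 0.24, adjusted p = 0.0122), without overlap. That call was lost without rad6Δ tagged replicate 3 (0.74), rtf1-AAA replicate 2 (0.84) or rtf1-AAA replicate 3 (0.81), with adjusted p from 0.0528 to 0.0747. In the strains without tags, 11 of the 22 pheromone-induced genes and all 7 a-specific genes were higher in H2B-K123R than in rad6Δ untagged and 1 pheromone-induced gene was lower, where 5.25% of all genes were higher and 5.27% lower.

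Sulfate assimilation and methionine synthesis formed the next group, in which rtf1-AAA often passed the wild-type level. Its genes answer to Met4, which has no DNA-binding of its own and is brought to promoters by Cbf1 and by Met31 or Met32. MET14, the gene of the second step of sulfate activation, is shown over the same stretch, with CACGTG (the Cbf1 site) and TGTGGC (the Met31 and Met32 site) in capitals:
MET14, chrXI:439486-439685, minus strand: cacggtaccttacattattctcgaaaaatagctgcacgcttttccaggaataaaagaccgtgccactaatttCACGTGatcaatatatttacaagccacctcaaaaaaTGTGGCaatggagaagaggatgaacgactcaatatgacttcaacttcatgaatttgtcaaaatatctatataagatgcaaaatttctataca

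On either strand, CACGTG stood before 9 of the 23 genes of this list (39.1%) and 3.63% of all genes, and TGTGGC before 15 (65.2%) and 8.12%. Of the 10 called genes of the list, 3 held CACGTG and 6 held TGTGGC. Neither site was more frequent among the called genes than in the whole list. Of the 23 genes, 10 were higher in rtf1-AAA than in rad6Δ tagged and 0 lower, with a median of 0.46, and all 10 held without any 1 library. Against WT tagged, 8 of the 23 had fallen in the deletion and 11 had risen in rtf1-AAA. Of all genes, 20.2% had fallen in the deletion and 11.9% had risen in rtf1-AAA. MET2, which encodes homoserine acetyltransferase, showed both movements: 17.6, 16.2 and 17.4 CPM in rad6Δ tagged, 62.7, 55.4 and 39.6 in rtf1-AAA and 30.4, 22.7 and 27.1 in WT tagged (log2 1.62 ± 0.15, adjusted p = 2.32e-07). MET14 behaved alike, at 28.3, 26.4 and 32.3, then 77.9, 72.7 and 59.4, then 46.6, 38.4 and 51.3 CPM (1.27 ± 0.13, adjusted p = 3.4e-07). For both genes the wild type lay between the mutants without overlap. MET17, the gene of the sulfide-incorporating step, went the same way (1.56 ± 0.22), and MET6, the methionine synthase gene, reached only the wild-type level (1.49 ± 0.25). The activator gene MET4 was not called (0.12, adjusted p = 0.445). In H2B-K123R, 9 of the 23 were higher than in rad6Δ untagged and 1 was lower, where 5.25% of all genes were higher and 5.27% lower.

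Some genes of protein synthesis were higher in rtf1-AAA. Of 132 ribosomal protein genes, 55 were higher and 0 lower, with a median of 0.40. Summed over the list they took 129500 to 152700 CPM in rad6Δ tagged, 176100 to 202600 in rtf1-AAA and 187500 to 223500 in WT tagged. RPS9A had 230, 210 and 223 CPM in rad6Δ tagged, 460, 411 and 396 in rtf1-AAA and 408, 398 and 408 in WT tagged (0.93 ± 0.09, adjusted p = 1.24e-07), and it has a near-identical copy. The deletion had lowered 99 of the 132 and raised 0 against WT tagged, where 20.2% of all genes were lower and 21.5% higher. The count of 55 fell to 32 without rad6Δ tagged replicate 2 and to 34 without replicate 1, and 27 genes held in all 6 fits without 1 library.

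Ribosome biogenesis factors had 11 of 61 higher and 0 lower (median 0.23), among them DBP3, an RNA helicase gene (0.63 ± 0.12), and GAR1, of the pseudouridylating particle (0.51 ± 0.10). Against WT tagged, 10 of the 61 had risen in rtf1-AAA and 0 fallen, where 11.9% of all genes were higher and 12.6% lower. The list's sum was 24480 to 25640 CPM in rtf1-AAA, 20510 to 21580 in rad6Δ tagged and 20170 to 22950 in WT tagged. The count of 11 was 3 without rad6Δ tagged replicate 1, 5 without replicate 2, 6 without rtf1-AAA replicate 2 and 5 with libraries scaled by K. lactis totals. In the list of other amino acid synthesis, which the activator Gcn4 controls, 16 of 41 genes were higher and 0 lower (median 0.34), and 10 were higher in each fit without 1 library. Its sum too was highest in rtf1-AAA, at 22310 to 27730 CPM, against 18960 to 20400 in rad6Δ tagged and 18910 to 21030 in WT tagged. TGACTC, the core of the Gcn4 site, stood before 29 of the 41 (70.7%) and 8.08% of all genes. It stood before 10 of the 16 called genes, no larger a share than in the whole list. SER33, of serine synthesis, had 68.4, 78.4 and 71.3 CPM in rad6Δ tagged and 106, 119 and 119 in rtf1-AAA (0.66 ± 0.11, adjusted p = 0.00023). The 41 respiratory chain and ATP synthase genes had 0 calls either way (median 0.05). The phosphate transporter gene PHO84 was higher, with 4.76, 3.58 and 3.4 CPM in rad6Δ tagged and 28.6, 18.6 and 29.4 in rtf1-AAA (2.701 ± 0.64, adjusted p = 0.00788), although counted without strand it was not called (0.65, adjusted p = 0.215). Its WT tagged libraries spread widely, at 45.1, 9.85 and 13 CPM. Of the 23 phosphate regulon genes, PHO84 among them, 2 were higher and 1 lower, with a median of 0.12. The untagged deletion lowered 16 of the 23 and raised 0 (median −1.23), whereas the tagged deletion lowered 2 and raised 2 (median −0.07).

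**Figure D2:**
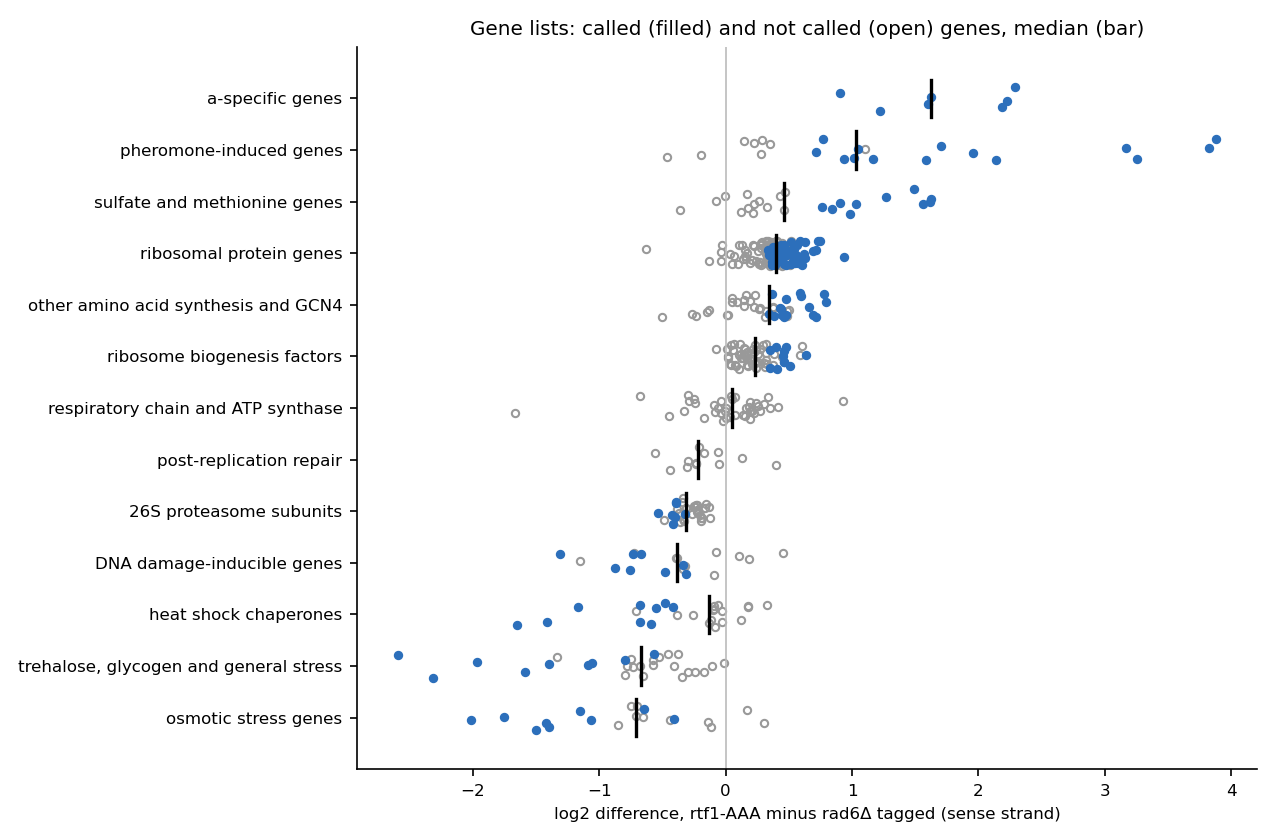
Log2 difference on the sense strand, rtf1-AAA minus rad6Δ tagged, for each tested gene of 13 lists, with called genes filled, other genes open and a bar at the list's median. All 7 a-specific genes lie right of 0, and the called genes of the proteasome, DNA damage, heat shock, general stress and osmotic stress lists lie left of it.

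On the other side, 457 genes were lower in rtf1-AAA than in the deletion, among them stress genes. Of the 457, 248 were unshared and high in the deletion, and 50 lay farther from WT tagged in rtf1-AAA than in the deletion. The general stress factors Msn2 and Msn4 bind AGGGG, and heat shock genes also answer to Hsf1. HSP42, which encodes a small heat shock protein, is shown over the same stretch with AGGGG in capitals:
HSP42, chrIV:806321-806520, plus strand: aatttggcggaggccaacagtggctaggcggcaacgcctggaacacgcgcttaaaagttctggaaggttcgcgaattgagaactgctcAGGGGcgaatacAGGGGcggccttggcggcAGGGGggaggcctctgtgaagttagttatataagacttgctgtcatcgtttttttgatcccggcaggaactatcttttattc

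On either strand, AGGGG stood before 19 of 28 genes of trehalose, glycogen and general stress (67.9%), 10 of 19 osmotic stress genes (52.6%) and 8 of 25 heat shock chaperone genes (32%), against 22.6% of all genes. In the same order, it stood before 8, 5 and 7 of the 9 called genes of each list. In each of the 3 lists 9 genes were lower and 0 higher, with medians of −0.67, −0.71 and −0.13. In H2B-K123R against rad6Δ untagged, 0, 6 and 1 genes of these lists were higher and 1, 1 and 2 lower. Of all genes, 5.25% were higher and 5.27% lower in that pair. The osmotic list, with a median of 0.275 there, went the other way. Against WT tagged, the deletion had raised 12, 8 and 13 genes of these lists and lowered 0, 2 and 0. Of all genes, 21.5% were higher and 20.2% lower in it. In rtf1-AAA 1, 0 and 4 had risen and 0, 3 and 1 had fallen, where 11.9% of all genes were higher and 12.6% lower. Summed, the osmotic genes had 1499 to 1680 CPM in rad6Δ tagged, 1346 to 1705 in WT tagged and 1196 to 1239 in rtf1-AAA, so that in this sum rtf1-AAA lay apart. Gene by gene, the osmotic list's median log2 difference from WT tagged was 0.41 in rad6Δ tagged and −0.24 in rtf1-AAA. The general stress genes had 2564 to 3018 CPM in rad6Δ tagged and 1808 to 1952 in rtf1-AAA, and WT tagged replicate 1, at 2776, lay within the deletion's range while replicates 2 and 3 had 1836 and 2010. HSP42 had 72.1, 61.4 and 67.4 CPM in rad6Δ tagged, 14.3, 16 and 32.8 in rtf1-AAA and 18.6, 19 and 15.4 in WT tagged (−1.65 ± 0.35, adjusted p = 0.00282). The mutants did not overlap, and rtf1-AAA was not called against the wild type. GAD1, the glutamate decarboxylase gene, had 169, 141 and 150 CPM in rad6Δ tagged, 59.8, 61.8 and 53.3 in rtf1-AAA and 75.1, 50.1 and 55.5 in WT tagged (−1.40 ± 0.18, adjusted p = 1.88e-05). Among osmotic stress genes, GRE1 was lower in rtf1-AAA by −2.02 ± 0.31 and CTT1, the cytosolic catalase gene, by −1.40 ± 0.26. The heat shock count was 3 without rad6Δ tagged replicate 1 and 5 without rtf1-AAA replicate 2, whereas the general stress and osmotic counts stayed between 7 and 10 without any 1 library. The factor genes MSN2, MSN4 and HSF1 were not called.

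HSP12, a stress protein gene, rests on single libraries. It had 319, 254 and 255 CPM in rad6Δ tagged and 69.8, 36.5 and 31.6 in rtf1-AAA (−2.59 ± 0.70, adjusted p = 0.0175), a call lost without rtf1-AAA replicate 2 (adjusted p = 0.0704) or replicate 3 (adjusted p = 0.065). WT tagged had 268, 25.8 and 37.5 CPM, so that its replicate 1 sat with the deletion. The estimate of spread in the model includes those wild-type libraries.

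PUT4, RIM4 and POT1 had the largest lower values at 10 CPM or more. The proline permease gene PUT4 had 19.4, 9.13 and 12 CPM in rad6Δ tagged and 2.17, 2.42 and 1.91 in rtf1-AAA (−2.64 ± 0.43, adjusted p = 0.000235). RIM4, which encodes a meiotic translational repressor, had 27.2, 16.5 and 25.6 CPM against 3.32, 4.45 and 3.51 (−2.61 ± 0.28, adjusted p = 1.3e-06), and POT1, the peroxisomal thiolase gene, 14, 8.26 and 14.9 CPM against 2.17, 1.78 and 2.11 (−2.61 ± 0.35, adjusted p = 2.12e-05). In none of the 3 did the mutants overlap. Against WT tagged rtf1-AAA was at −0.19 for PUT4, 0.75 for RIM4 and 1.25 for POT1, none of them called (adjusted p = 0.833, 0.123 and 0.0706). Where 7.89% of all genes were lower and 6.44% higher, 9 of 34 meiotic genes tested were lower and 2 higher. Of 39 nitrogen catabolite and permease genes 9 were lower and 3 higher. Without rad6Δ tagged replicate 1 the latter counts were 5 and 1, without replicate 2 they were 8 and 1, and without replicate 3 they were 6 and 3. AMS1, the vacuolar mannosidase gene (−1.54 ± 0.22), and SGA1, the sporulation glucoamylase gene (−1.53 ± 0.22), were lower in rtf1-AAA than in the deletion but still called above WT tagged, by 1.89 and 1.03. GID11, MSC1, FMP45 and TDH1 completed the 12 genes with the largest lower values among those at 10 CPM or more, together with HPF1 below, from −1.73 to −1.53. FMP45 lost its call without rtf1-AAA replicate 2 (adjusted p = 0.0529), and TDH1 has a near-identical copy.

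A few proteasome subunit genes were lower in rtf1-AAA than in the deletion. The factor Rpn4 binds the proteasome associated control element, GGTGGCAAA, which is shown before RPT1, the gene of a base ATPase subunit, with the element (here as its reverse complement) in capitals:
RPT1, chrXI:173913-174112, plus strand: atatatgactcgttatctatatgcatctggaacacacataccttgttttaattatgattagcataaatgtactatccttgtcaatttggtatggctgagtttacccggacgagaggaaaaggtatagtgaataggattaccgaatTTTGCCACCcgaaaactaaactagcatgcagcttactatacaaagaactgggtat

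On either strand, GGTGGCAAA stood before 27 of 33 subunit genes (81.8%) and 1.29% of all genes. It stood before 6 of the 7 called subunit genes. All 33 had a log2 difference below 0, from −0.54 to −0.12 with a median of −0.32, but only 7 were called lower. RPT1 had 799, 692 and 760 CPM in rad6Δ tagged, 622, 590 and 506 in rtf1-AAA and 401, 390 and 390 in WT tagged (−0.39 ± 0.09, adjusted p = 0.00725). It was the 1 subunit gene called in all 6 fits without 1 library. The count of 7 was 1 without rad6Δ tagged replicate 3, 2 without replicate 1, 3 without rtf1-AAA replicate 2, 4 without replicate 3, 2 with K. lactis scaling and 13 with K. lactis totals. Against WT tagged, 24 of the 33 had risen in the deletion, where 21.5% of all genes were higher and 20.2% lower. In rtf1-AAA 10 had risen, where 11.9% of all genes were higher and 12.6% lower.

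Of 18 genes for factors around the proteasome, 5 were lower and 0 higher. ECM29, whose product holds core and cap together, had 837, 740 and 756 CPM in rad6Δ tagged, 478, 447 and 420 in rtf1-AAA and 395, 384 and 341 in WT tagged (−0.79 ± 0.09, adjusted p = 2.72e-06). The activator gene BLM10 (−0.66 ± 0.09) and the genes of the segregase Cdc48 and its cofactors, CDC48 (−0.53 ± 0.12), UFD1 (−0.55 ± 0.12) and NPL4 (−0.66 ± 0.11), were lower as well. These 5 genes held without any 1 library. RPN4 itself was not called (−0.17, adjusted p = 0.503).

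Repair genes were taken as separate lists. Of 12 post-replication repair genes, 0 were called (median −0.22). RAD18, among them the gene of the ligase that acts with Rad6 at stalled forks, was at −0.29 ± 0.25 (adjusted p = 0.5). Of all genes 14.3% were called, so that 0 of 12 does not show that this list was unchanged or stood apart. Of 19 DNA damage-inducible genes, 8 were lower in rtf1-AAA and 0 higher, with a median of −0.38. Against WT tagged, the deletion had raised 11 and lowered 2, and rtf1-AAA had raised 2 and lowered 7. Of all genes, the deletion had raised 21.5% and lowered 20.2%, and rtf1-AAA had raised 11.9% and lowered 12.6%. The list's sum was 1574 to 1758 CPM in rtf1-AAA, 1902 to 2074 in rad6Δ tagged and 1985 to 2172 in WT tagged, so that rtf1-AAA was lowest. MAG1, the gene of a DNA glycosylase that removes alkylated bases, had 65.2, 55.5 and 68.9 CPM in rad6Δ tagged, 28.3, 25.7 and 22.8 in rtf1-AAA and 33.5, 36.5 and 35.8 in WT tagged (−1.31 ± 0.13, adjusted p = 3.04e-07). It was above the wild type in one mutant and below it in the other, without overlap. The photolyase gene PHR1 (−0.88 ± 0.16), the recombination gene RAD54 (−0.67 ± 0.12) and the kinase gene DUN1 (−0.73 ± 0.14) were lower too, and all of these and MAG1 held without any 1 library. The count of 8 was 5 without rad6Δ tagged replicate 1, without rtf1-AAA replicate 1 (where 1 gene was higher), with only the compared libraries, and with K. lactis scaling. In the strains without tags, 7 of the 19 were lower in H2B-K123R than in rad6Δ untagged, MAG1 by −1.09 (adjusted p = 4.44e-06). Of all genes, 5.27% were lower in that pair.

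Some of the 83 genes that lay farther from WT tagged in rtf1-AAA were not called in rad6Δ tagged against WT tagged. COS8 (YHL048W, VIII 6401 to 7546), a subtelomeric gene of the DUP380 family, had 114, 104 and 115 CPM in rad6Δ tagged and 83.4 to 127 in the 3 WT tagged libraries, but 38, 39.5 and 41.3 in rtf1-AAA (−1.48 ± 0.22, adjusted p = 8.61e-05). The rtf1-AAA libraries lay below all others of the 9, and COS8 was not called in rad6Δ untagged against WT untagged either (0.24, adjusted p = 0.385). STR3, a cystathionine beta-lyase gene of the methionine pathway, had 64.9, 71.2 and 41.4 CPM in rtf1-AAA against 16.3, 18.9 and 22.6 in rad6Δ tagged and 17.3, 21.6 and 25.4 in WT tagged (1.62 ± 0.21, adjusted p = 1.37e-05). In the strains without tags, however, the deletion raised STR3 by 1.13 (adjusted p = 0.000283). Of 11 COS genes 2 were lower and 0 higher (median −0.55), where 7.89% of all genes were lower and 6.44% higher. Only 1 COS gene was lower without rad6Δ tagged replicate 1 or 2 or rtf1-AAA replicate 2, whereas 3 were without rtf1-AAA replicate 1.

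Because the comparisons with WT tagged share its libraries and those of the mutants, the calls were set beside strains that share none. In rad6Δ untagged against WT untagged, where 22.3% of genes were higher and 20.5% lower, 265 of the 373 genes higher in rtf1-AAA (71%) had fallen and 12 had risen. Of the 457 lower genes, 324 (70.9%) had risen and 7 had fallen. Over 5789 genes without RAD6, the log2 difference of the mutants and the effect of the untagged deletion with its sign turned had a Pearson r of 0.542, given as a description across genes, which are not independent. H2B-K123R lacks the ubiquitylated lysine and keeps Rad6, while rad6Δ untagged lacks the enzyme for that mark. The mark is thus absent from both, and the pair differs in Rad6 and in the H2B genes. In H2B-K123R against rad6Δ untagged, 106 of the 373 (28.4%) were also higher and 1 lower. Of the 457, 140 (30.6%) were also lower and 14 higher (r 0.294 without RAD6). Both untagged comparisons use the rad6Δ untagged libraries, with opposite sign, so that they are not independent of each other. Of the 440 unshared genes, 150 of the 192 low ones fell and 198 of the 248 high ones rose in the untagged deletion. That agreement is favoured by the choice of genes called in the tagged deletion, and it does not bear on rtf1-AAA. Of the same genes, 47 and 66 were called in the same direction between H2B-K123R and rad6Δ untagged.

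**Figure D3:**
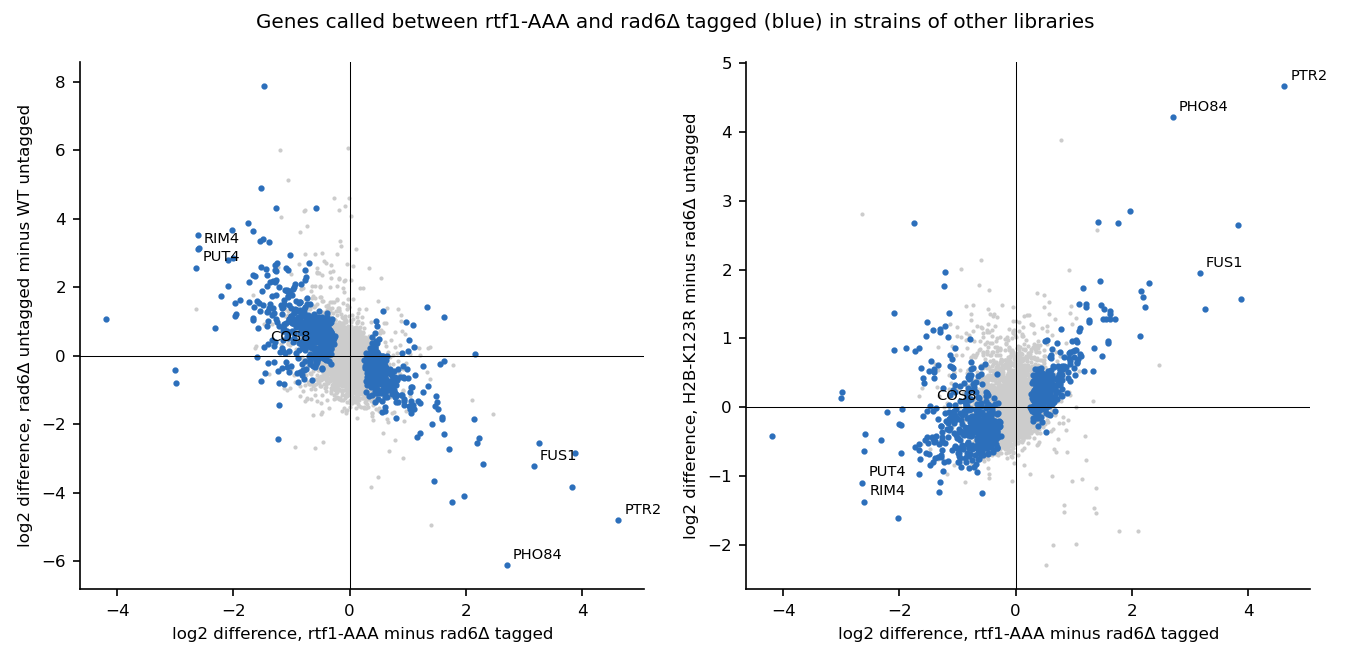
Each point is 1 gene of 5789 (RAD6 left out), with the log2 difference rtf1-AAA minus rad6Δ tagged on the x axis and, on the y axis, that of rad6Δ untagged minus WT untagged (left) or H2B-K123R minus rad6Δ untagged (right), from libraries not used on the x axis. Called genes are blue, and PTR2, PHO84 and FUS1 lie on the right of both panels, below 0 in the left one and above 0 in the right one.

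Genes were also chosen in untagged libraries alone. Since they were chosen for an effect of RAD6 deletion, the genotype of rad6Δ tagged, a larger effect there than in rtf1-AAA is favoured by the choice, and the values are a description. There 295 genes rose and 247 fell by 2-fold or more in rad6Δ untagged. Of the 295, 289 had a log2 difference above 0 in rad6Δ tagged against WT tagged (median 1.33) and 254 in rtf1-AAA (median 0.68). Of the 247, 228 were below 0 in rad6Δ tagged (median −0.85) and 216 in rtf1-AAA (median −0.53). Direct calls between the mutants placed rtf1-AAA toward the wild type at 138 of the 295 and 68 of the 247, and away from it at 3 and 2. At the same time rtf1-AAA itself was called in the deletion's direction at 135 and 103 of them.

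**Figure D4:**
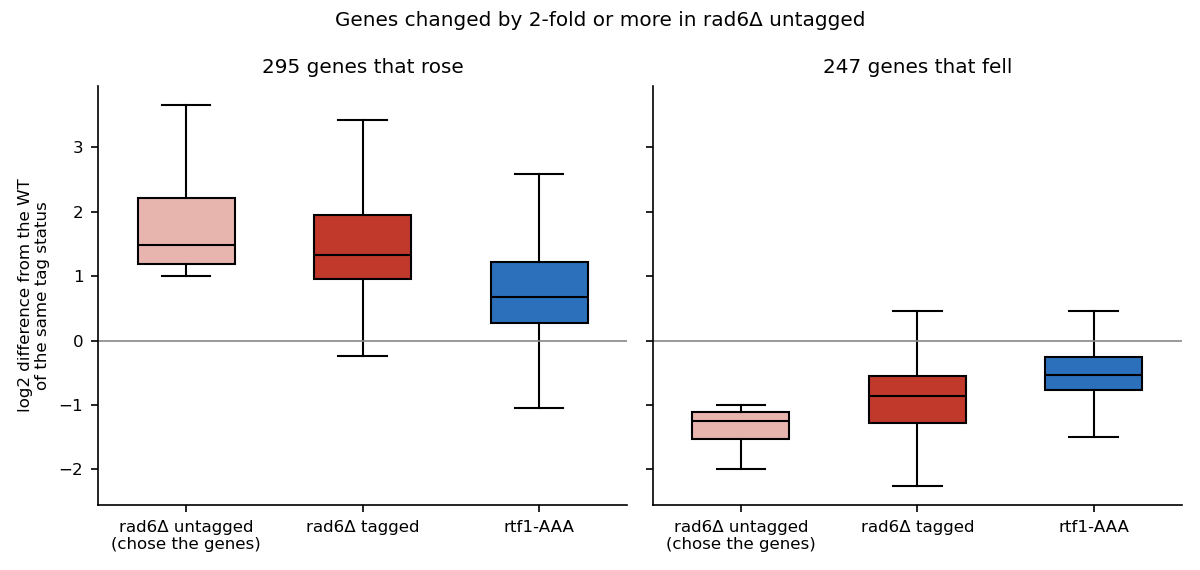
Log2 differences from the matching wild type (WT untagged or WT tagged) for the 295 genes that rose and the 247 that fell by 2-fold or more in rad6Δ untagged, with boxes at the quartiles, a line at the median and whiskers to the farthest gene within 1.5 box lengths. The medians in rtf1-AAA, 0.68 and −0.53, lie between 0 and those of rad6Δ tagged, 1.33 and −0.85.

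On the antisense strand, 119 of 3741 genes (3.18%) were called, 56 (1.5%) higher and 63 (1.68%) lower in rtf1-AAA. An antisense count is the number of reads on the strand opposite the annotated gene. A gene was taken to overlap another there when counting without strand lost reads equal to more than 10% of its antisense counts. This held for 43 of the 119 genes and not for 76 (35 higher and 41 lower). Reads that run on from a neighbouring gene were not tested for. Leaving out 1 library gave 62 to 106 calls, with 41 genes called in all 6 such fits. PTR2 had the largest lower value among genes at 2 CPM or more. Its antisense level was 18.7, 24.7 and 20.8 CPM in rad6Δ tagged, 1.45, 1.78 and 1.5 in rtf1-AAA and 0.131, 0.122 and 0.883 in WT tagged (−3.75 ± 0.26, adjusted p = 4.13e-11). Both mutants were above the wild type, and in rad6Δ tagged the antisense level exceeded the sense level of the same gene in each library.

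FUS1 also moved in opposite directions on its strands, with antisense levels of 4.15, 4.56 and 4.92 CPM in rad6Δ tagged and 0.578, 1.02 and 1.7 in rtf1-AAA (−1.98 ± 0.34, adjusted p = 0.000565), although it was taken to overlap a gene there. HPF1 (YOL155C, XV 28703 to 31606), a cell wall mannoprotein gene, did the reverse. Its antisense level was 98.7, 78.7 and 101 CPM in rad6Δ tagged, 309, 259 and 222 in rtf1-AAA and 232, 243 and 282 in WT tagged (1.51 ± 0.14, adjusted p = 1.99e-08). Its sense level was 15.5, 24.9 and 14.4 CPM in rad6Δ tagged, 3.9, 5.85 and 7.62 in rtf1-AAA and 2.36, 1.58 and 2.65 in WT tagged (−1.63 ± 0.26, adjusted p = 0.000192). Across the 105 called antisense genes whose sense strand was tested, the sense strand was called in the opposite direction at 12, in the same direction at 3 and not at 90.

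RIF2, which encodes a telomere-length regulator, had the largest higher antisense value under the same minimum: 0.732, 1.36 and 1.64 CPM in rad6Δ tagged, 7.52, 7.37 and 5.72 in rtf1-AAA and 19.4, 19.8 and 22.1 in WT tagged (2.45 ± 0.27, adjusted p = 8.39e-07). The 3 strains did not overlap, and the sense strand was not called (−0.38, adjusted p = 0.12). BST1, of the endoplasmic reticulum, and PRR2, a kinase gene, were higher by 1.96 ± 0.29 and 1.55 ± 0.19. SLI1, taken to overlap a gene on that strand, and the formin gene BNR1 were lower by −1.94 ± 0.33 and −1.59 ± 0.30. COS6 (1.53 ± 0.24) and HXT9 (−1.61 ± 0.25) have near-identical copies.

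**Figure D5:**
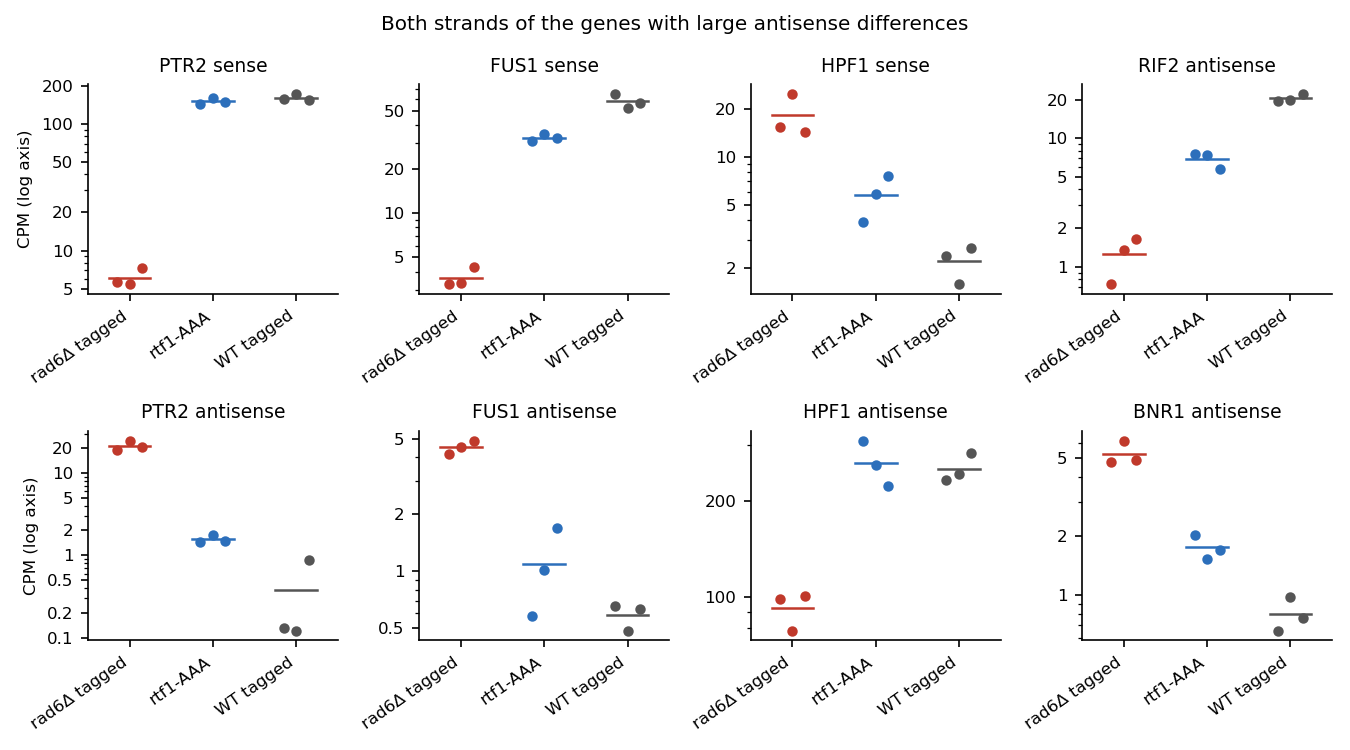
CPM on a log axis, 1 point per library and a line at the mean of 3, for both strands of PTR2, FUS1 and HPF1 and the antisense strand of RIF2 and BNR1. In PTR2 and FUS1 the antisense level is highest in rad6Δ tagged, where the sense level is lowest, and in HPF1 the antisense level is lowest and the sense level highest in rad6Δ tagged.

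Library-wide measures did not separate the mutants at this size of design. Antisense counts were 5.53 ± 0.25% of sense plus antisense counts in rtf1-AAA and 5.41 ± 0.16% in rad6Δ tagged (SD, n = 3), a difference of 0.12 points (exact two-sided permutation test, p = 0.6, adjusted 0.6). The log2 ratio of S. cerevisiae sense to K. lactis counts was 2.792 ± 0.04 and 2.704 ± 0.06, a difference of 0.09 (exact permutation p = 0.2, Benjamini-Hochberg adjusted over both measures 0.4). With 3 against 3 the smallest p is 0.1. Scaling genes by K. lactis counts moved the median of all genes to 0.05 with TMM factors and to −0.08 with totals. The split of higher and lower calls was then 445 and 310, or 251 and 552, and 558 genes were called in the main direction under both.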

How the data were processed

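RNA was measured in 24 libraries, 8 genotypes with 3 replicates each, of which 6 are compared here. The authors deposited raw counts per gene for the sense strand, the antisense strand, both strands together, and K. lactis. The submitters' processing notes name STAR 2.7.5a, featureCounts, DESeq2 and the R64 (sacCer3) build; the settings used are not given in the sources used here. Of 6571 S. cerevisiae genes, 5897 matched the R64 annotation, and the other 674 held 0.133% of the counts.

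Differences were tested with edgeR 4.0.16 in R 4.3.3 (quasi-likelihood F test, robust, TMM factors, low-count filter by filterByExpr) in 1 model of all 24 libraries with 8 group means and 16 residual degrees of freedom, with Benjamini-Hochberg adjustment over all genes tested. Antisense counts used the library sizes and factors of the sense counts. A standard error is the absolute log2 difference divided by the square root of F. Library-wide measures were compared with exact permutation tests. The alternatives were DESeq2 1.42.0, other scalings, K. lactis scaling, counts without strand, no filter, only the compared libraries, a replicate block and leaving out each library. K. lactis totals were added after seeing the data. The code was tested on simulated counts.

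Named genes were at most the 6 called members of each list with the largest differences, with its regulators, the 12 largest differences each way among called genes whose libraries did not overlap (mean of 10 CPM or more in the strain with more), and for antisense the 5 largest each way (2 CPM or more). RAD6, RTF1, their neighbours and marker genes were named whatever their values. Near-identical copies were found with BLAST 2.17.0 (at least 90% identity over 50% of the length), as a read may be split between them. Intervals cover counting error only. The members and gene lists were chosen with earlier results of these data known.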

Additional observations from a re-analysis of the deposited data

Results flagged for a closer look

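For 3 named genes the effect of deleting RAD6 differed between tagged and untagged strains by the test of the difference itself (edgeR's quasi-likelihood test, Benjamini-Hochberg adjusted). For PHO5, the acid phosphatase gene, the tagged minus untagged effect was 2.994 (adjusted p = 0.0388), from −0.66 in the tagged and −3.66 in the untagged deletion. For TDH2, a glyceraldehyde-3-phosphate dehydrogenase gene with a near-identical copy, it was 1.086 (adjusted p = 0.034), from 0.32 and −0.77. For PDC1, the main pyruvate decarboxylase gene, it was 1.707 (adjusted p = 0.033), from 1.03 and −0.68. Over all genes, 16 were called for this difference and 537 had an unadjusted p under 0.05.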

How the results depend on the processing

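The count of 830 sense genes was 466 with only the compared libraries, 175 when a 2-fold difference was also asked for, and 532 to 789 without 1 library. It was 906 with the replicate block, although the numbers did not pair the libraries (correlations of same-numbered libraries 0.0377, 0.344 and −0.215). The higher and lower split was 428 and 433 with median-of-ratios factors, 463 and 430 with DESeq2, 445 and 310 with K. lactis scaling, and 251 and 552 with K. lactis totals, an alternative chosen after seeing the data. The 119 antisense genes became 72 and 55 under the first pair of settings, 139 with the replicate block, and 62 to 106 without 1 library, with 58 higher and 49 lower under K. lactis scaling and 35 and 72 under K. lactis totals. The 440 unshared effects ranged from 290 to 465 without 1 library, and were 485 with the replicate block, 219 low and 167 high in the deletion with K. lactis scaling, and 127 and 289 with its totals.

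The difference in antisense percentage turned to −0.102 without genes taken to overlap an opposite gene and ranged from −0.0144 to 0.237 without 1 library, and the ratio to K. lactis from 0.0548 to 0.115. HPF1 turned to 1.287 when counted without strand, where its antisense reads are included. Genes that were not called turned sign as well. DAL5 was at 0.008696 with K. lactis scaling, SIR1 at −0.05272 and SET1 at −0.02511 with K. lactis totals. Without 1 library, RTF1 ranged from −0.1892 to 0.02589, MSN2 from −0.1971 to 0.05345, DAL5 from −0.424 to 0.2429, SIR1 from −0.1437 to 0.1232 and CLN1 from −0.01327 to 0.3791. The cause of these shifts was not tested. With 3 libraries a strain from 1 strain each, small differences in low genes were not detectable at this depth.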

Other observations

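For the lists here, the shares over all genes were 7.89% lower and 6.44% higher in rtf1-AAA than in rad6Δ tagged. Carbon metabolism genes moved in part. Of 30 genes of glycolysis, fermentation and gluconeogenesis, 7 were lower and 1 was higher in rtf1-AAA than in rad6Δ tagged (edgeR's quasi-likelihood test, adjusted p under 0.05), with a median log2 difference of 0.12, so that the median and the calls differ in sign. ENO1, TDH1 and TDH2, of lower glycolysis, were the genes of this list called without any 1 library. Ergosterol synthesis genes had 4 of 27 higher and 0 lower (median 0.06), and purine synthesis genes 5 of 17 higher and 0 lower (median 0.18). Without rad6Δ tagged replicate 1 these were 2 and 3 higher, ergosterol genes were also 2 without rtf1-AAA replicate 2 and with K. lactis totals, where their median turned to −0.00181, and the 7 lower glycolysis genes were 4 without rad6Δ tagged replicate 1 or 2 or rtf1-AAA replicate 3. Of 290 subtelomeric genes tested, 36 were lower and 11 higher in rtf1-AAA, against 7.89% and 6.44% of all genes.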
